A study of Mus musculus with 6 samples.

Results

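Goblet cells are the epithelial cells that make and release the mucus covering the intestinal lining. Their granules hold Muc2, a very large gel-forming mucin, together with proteins that are released with it and bind, cross-link or cut the gel. A set of 10 goblet cell mucus genes was taken by gene symbol from a table of 25416 rows, each symbol matching 1 row, and read in mouse intestine of 2 genotypes. The HET libraries came from tissue carrying the S254D substitution of Rnf111, which the labels name as heterozygous, and the WT libraries from wild-type tissue, with 3 libraries of each. Rnf111 encodes a ubiquitin ligase that acts in TGF-beta signalling, and the study asked how the substitution alters intestinal transcript levels. The sources used here give no age, sex, strain, treatment or gut segment, and do not say whether each library came from its own animal. The p-values therefore speak to the scatter of 6 libraries, part of which could be technical.

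The 10 genes fall into 3 groups by role. Muc2, Fcgbp, Clca1, Zg16 and Tff3 encode the secreted components of the mucus. Agr2 and Spdef serve its production, Agr2 as a protein of the endoplasmic reticulum that mucin folding requires and Spdef as a transcription factor of goblet cell maturation. Retnlb, Spink4 and Tpsg1 encode products that are induced or accessory: a resistin-like protein that gut bacteria and type 2 immune signals induce, a Kazal-type protease inhibitor, and the membrane-anchored protease tryptase gamma 1.

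In whole tissue, 8 of the 10 genes had lower levels in HET with a limma adjusted p below 0.05, and 0 were higher (Muc2 and Spdef did not pass). Of all 11870 genes tested, 35.7% were lower by the same rule, 10.7% were higher and 46.4% were called in either direction. All 3 HET values lay below all 3 WT values for 9 of the 10 genes, Retnlb included, as they did for 43.8% of the genes tested. All HET values lay above WT for 0 of the 10 genes and for 16% of the genes tested. The median of the 11870 tested genes stood at a log2 fold change of -0.12. That median was -0.08 without the filter on low values, -0.22 with scaling to epithelial genes and 0.04 with quantile normalization. The share of called genes that were lower was 76.9% with the values as deposited, 66.9% with a common sum, 58.3% with median-ratio scaling, 42.4% with quantile normalization and 91.0% with epithelial scaling. The 9 genes that were lower in HET kept that direction under each of these scalings.

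The estimated depth was between 20000000 and 22200000 fragments for HET and between 21100000 and 26000000 for WT. These depths are rough because they were read from the lowest values in the table. Rows at 0 numbered 7295 to 7460 in the HET libraries and 6295 to 6688 in the WT libraries. Levels are given as FPKM, fragments per kilobase of transcript and per library total, which allows levels of different genes to be set side by side. A value with an error is a mean ± SD over 3 libraries, and a log2 fold change is HET minus WT on the log2(FPKM + 1) scale, which understates changes of weakly expressed genes. A gene was tested when 3 or more libraries reached an FPKM of 1, and all 10 genes passed this filter. Retnlb passed it through the WT libraries alone, so it had to differ, and without it 7 of 9 genes were lower. The filter likewise fixed its lack of overlap, so Retnlb adds nothing to the count of genes without overlap.

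**Figure D1:**
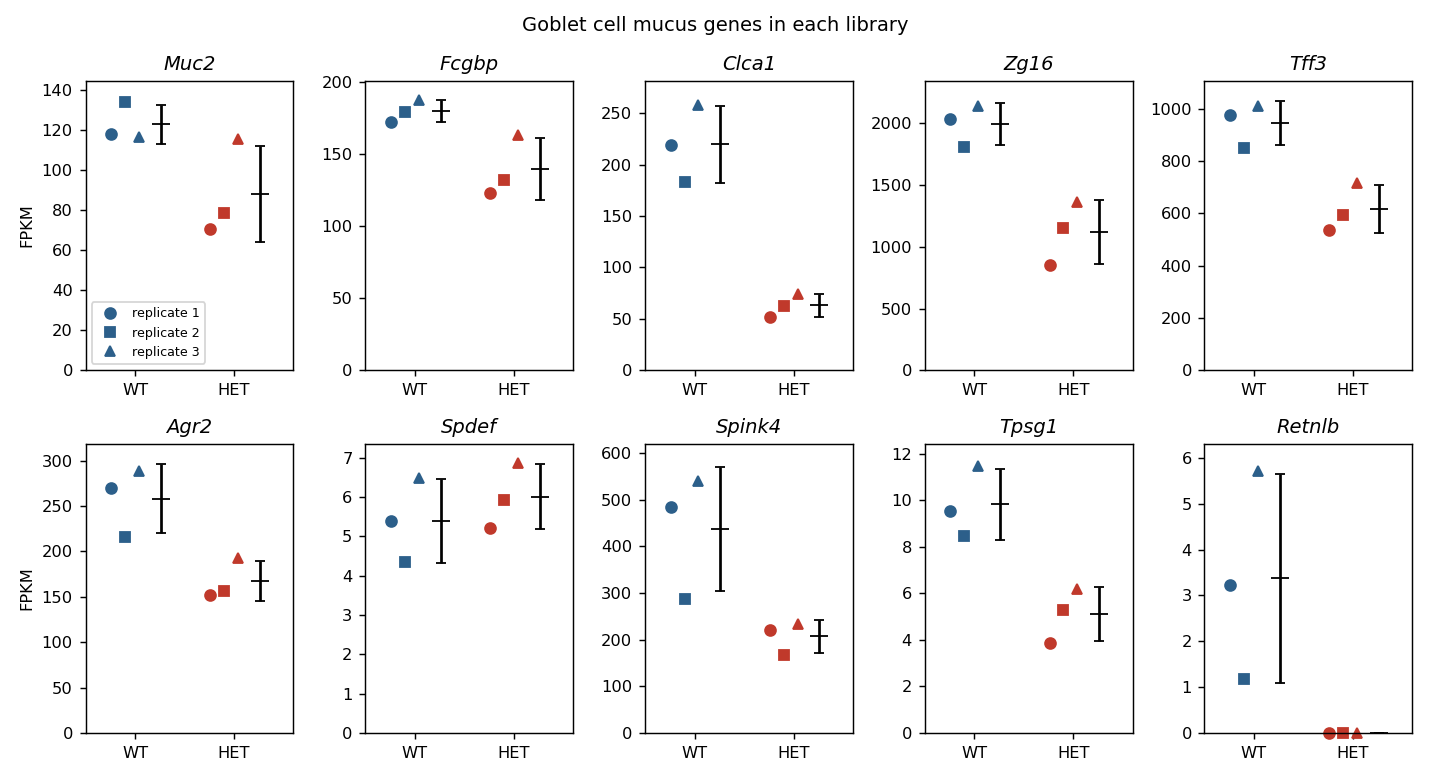
FPKM of each of the 10 genes in each library, with WT in blue, HET in red, 1 marker shape per replicate number, and the mean with its SD in black. HET lies wholly below WT in every panel but that of Spdef, and Retnlb is at 0 in the 3 HET libraries.

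Together the 10 genes held 0.395%, 0.482% and 0.612% of the summed FPKM in the HET libraries, taken in the order of their numbers, against 0.844%, 0.743% and 0.878% in WT. The ranges did not overlap. Zg16 was the most abundant of the set in both genotypes and ranked between 27 and 30 among all rows in WT and between 40 and 61 in HET. Tff3 came next, at rank 61 in each WT library and at ranks 73 to 127 in HET. In WT the order then ran Spink4, Agr2, Clca1, Fcgbp, Muc2, Tpsg1, Spdef and Retnlb. Within WT, Spink4 overlapped Agr2, Agr2 overlapped Clca1, Clca1 overlapped Fcgbp, and Spdef overlapped Retnlb, so the ranges of those neighbours did not separate them. The order in HET differed in the places of Clca1, Fcgbp, Muc2, Tpsg1 and Spdef. Compared within a library, Clca1 stood above Fcgbp and Muc2 in all 3 WT libraries and below both in all 3 HET libraries. Tpsg1 stood above Spdef in every WT library and below it in every HET library.

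Muc2, the mucin that forms the gel itself, was at 70.5, 78.6 and 115 FPKM in HET and at 118, 134 and 117 in WT. HET replicate 3 came within 2 FPKM of the lowest WT library, while the other two were clearly lower. Muc2 had a log2 fold change of -0.50 with an SE of 0.18 and a 95% confidence interval from -0.92 to -0.09, and the limma adjusted p of 0.0511 missed the threshold. The outcome rested on HET replicate 3: without it the log2 fold change was -0.71 and the adjusted p 0.00161. Fcgbp, a large protein that binds to the mucin network, was at 123, 132 and 163 FPKM in HET and at 172, 179 and 188 in WT. Its log2 fold change of -0.37 (SE 0.11) was the smallest of the 8 that passed (adjusted p = 0.0292). That call was lost when any library other than HET replicate 3 was left out (adjusted p between 0.0502 and 0.0976), with a common sum (0.0855) and with median-ratio scaling (0.101).

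Clca1 fell furthest of the mucus components detected in both genotypes. It encodes a secreted metalloprotease that cleaves Muc2 and loosens the mucus. Its FPKM was 51.8, 62.8 and 74.4 in HET against 219, 183 and 258 in WT, and the highest HET library was at less than the lowest WT library by a wide margin. Clca1 had a log2 fold change of -1.79 with a 95% confidence interval from -2.17 to -1.40 (SE 0.16, adjusted p = 0.000339), which 1.04% of all tested genes undercut. It stayed between -1.91 and -1.66 under the alternatives tried.

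Zg16, a lectin-like protein that binds Gram-positive bacteria in the mucus, was at 851, 1153 and 1367 FPKM in HET and at 2032, 1807 and 2144 in WT. Its log2 fold change was -0.85 (SE 0.18, adjusted p = 0.00784). Trefoil factor 3, Tff3, a small peptide known for epithelial repair, was at 538, 593 and 716 FPKM in HET and at 975, 851 and 1009 in WT. For Tff3 the log2 fold change was -0.62 (SE 0.13, adjusted p = 0.00699). Both transcripts stayed abundant in HET, and for both the genotypes did not overlap.

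Agr2 fell and Spdef did not. Agr2 was at 152, 157 and 193 FPKM in HET and at 270, 216 and 289 in WT, a log2 fold change of -0.62 (SE 0.14, adjusted p = 0.00963). Spdef was at 5.22, 5.93 and 6.88 FPKM in HET and at 5.39, 4.34 and 6.48 in WT. The Spdef libraries of the genotypes overlapped. Its log2 fold change was 0.14 with a 95% confidence interval of -0.19 to 0.47 (adjusted p = 0.441), so a fall as large as that of Agr2 lay outside the interval, whereas a small change either way did not.

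Spink4 was at 222, 167 and 233 FPKM in HET and at 486, 287 and 540 in WT, with a log2 fold change of -1.04 (SE 0.25, adjusted p = 0.0134). WT replicate 2 was far below the other two WT libraries, and without WT replicate 1 the call was lost (adjusted p = 0.0521). Tpsg1 was at 3.88, 5.26 and 6.19 FPKM in HET and at 9.54, 8.46 and 11.5 in WT, with a log2 fold change of -0.83 (SE 0.16, adjusted p = 0.00556). Tryptases are better known from mast cells, whose genes are given for comparison. Of 6 tested mast cell genes 5 rose and 1 fell, against 10.7% higher and 35.7% lower over all genes tested. The summed FPKM of the list of 11 was 34.5 to 68.0 in HET and 3.99 to 6.20 in WT. Cpa3, Fcer1a, Mcpt2 and Mcpt4 passed the filter through the HET libraries alone, so they had to differ. Of the other tested mast cell genes, Mcpt1 rose (33.6 ± 13.0 FPKM in HET and 1.36 ± 0.509 in WT) and made up most of the HET sum. Kit fell (1.48 ± 0.216 and 2.28 ± 0.388). Of the mast cell tryptases in that list, Tpsb2 was at 0.479 ± 0.0811 FPKM in HET and 0.0965 ± 0.0293 in WT, and Tpsab1 was listed at 0 in all 6 libraries. The part of mast cells in the Tpsg1 level was not tested.

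Retnlb was listed at 0 in all 3 HET libraries and was at 3.22, 1.18 and 5.72 FPKM in WT. At the estimated depths and a transcript of 0.696 kilobases, the WT values stand for about 47.2, 20.9 and 104 fragments, while 3 fragments, the approximate 95% upper limit of a Poisson mean when the count is 0, would correspond to 0.194 to 0.216 FPKM in the HET libraries. These figures cover counting error only. Because the HET libraries are at 0, no fold is given, and the fitted log2 fold change of -1.98 (adjusted p = 0.0046) depends on the pseudocount. Retnlg, a resistin-like gene known from neutrophils, was also near 0 in HET (0, 0.0753 and 0 FPKM) and at 3.44, 0.672 and 6.23 in WT, but was not tested because it reached 1 in too few libraries. The longest stretch that the Retnlb and Retnlg transcripts share without a mismatch was 26 bases. Retnla and Retn, the other 2 members of the family, did not pass the threshold (Retnla at 0.949 ± 0.505 in HET and 1.77 ± 1.27 in WT, Retn at 3.01 ± 1.72 and 4.62 ± 3.15).

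**Figure D2:**
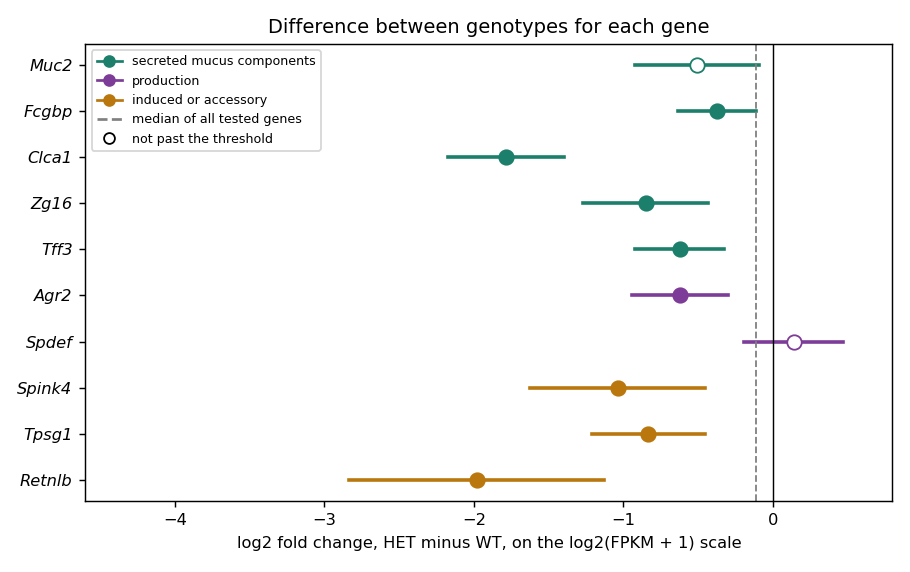
Log2 fold change of each gene (points) with its 95% confidence interval (lines), coloured by role, on the log2(FPKM + 1) scale. Retnlb (-1.98) and Clca1 (-1.79) lie furthest to the left, Spdef (0.14) lies to the right of 0, and the dashed line marks the median of all tested genes at -0.12.

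The libraries of a genotype also differed among themselves in a way that most of these genes shared. How many of all tested genes share it was not counted. All 9 genes detected in HET were highest in HET replicate 3, and 8 of them were lowest in HET replicate 1. In WT, 9 of the 10 were highest in replicate 3, with Muc2 highest in replicate 2, and 8 were lowest in replicate 2, the other two being Muc2 and Fcgbp. The highest library held 1.26 times the FPKM of the lowest for Agr2 in HET and 1.64 times for Muc2, against 1.09 times for Fcgbp and 4.86 times for Retnlb in WT.

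Paneth cell genes ordered the libraries alike. These cells share the crypt and the secretory lineage with goblet cells, and their 14 marker genes summed to 545, 814 and 1962 FPKM in HET replicates 1, 2 and 3, and to 16797, 7218 and 20980 in the WT libraries. All 14 were lower in HET, against 35.7% of all genes tested, but Habp2 passed the filter through the WT libraries alone, so it had to differ. WT replicate 2, the lowest WT library for the Paneth sum, was also the lowest for Retnlb and Spink4. The order was not particular to Paneth genes. Stromal markers summed to 131, 138 and 160 FPKM in HET replicates 1, 2 and 3, and to 320, 305 and 344 in WT. The mast cell list, at 34.5, 50.9 and 68.0 in HET and 5.32, 3.99 and 6.20 in WT, had that order too. The tuft cell list did not, at 27.7, 25.55 and 23.0 in HET. The part of Paneth cells in the goblet values was not tested. In whole tissue, fewer cells of a type and less RNA per cell cannot be told apart.

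**Figure D3:**
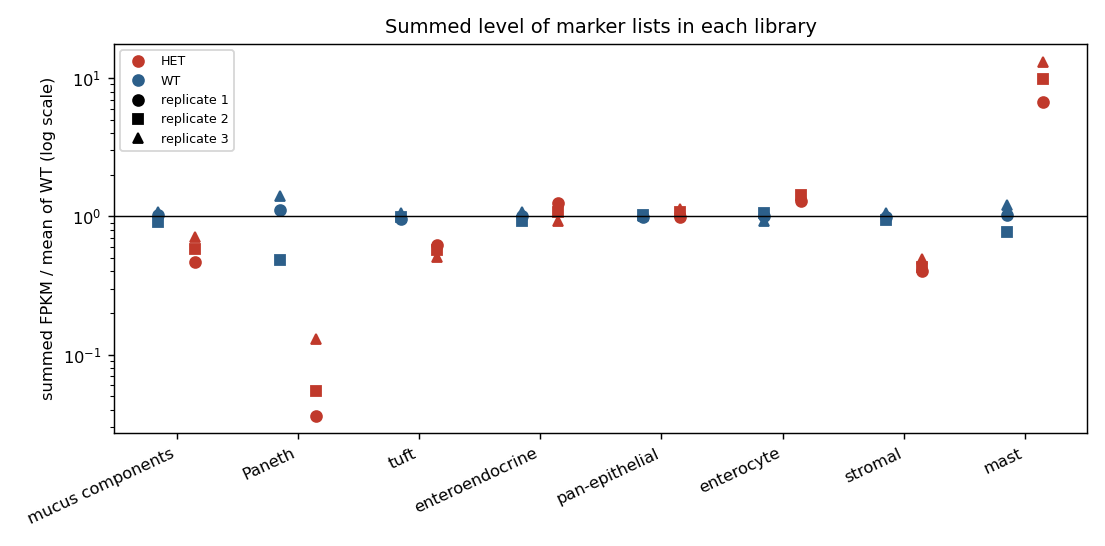
Summed FPKM of each marker list in each library, divided by the mean of the WT libraries, on a log axis. The 5 mucus components lie below WT in each HET library, Paneth genes lie far lower, pan-epithelial genes stay near 1 and mast cell genes lie above WT.

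The share of epithelium was set against the goblet genes by taking each gene relative to 15 genes of the whole epithelium, such as Epcam and Cdh1, within the same library. Of these 15 genes 4 rose, 0 fell and 11 did not pass, beside 10.7% higher and 35.7% lower among all genes tested. The 15 genes had a summed FPKM of 6123 to 7027 in HET and 6073 to 6282 in WT. Their mean log2(FPKM + 1), the reference used, was 8.09 to 8.17 in HET and 7.97 to 8.03 in WT, without overlap. That reference was thus higher in HET by 0.13 (exact two-sided permutation p = 0.1, the smallest possible), which enters every difference below and takes that of Spdef from 0.14 to 0.01. Relative to this mean, 8 of the 9 genes detected in HET lay wholly lower in HET, as did 57.7% of all tested genes. The difference in log2 ratio was -1.91 for Clca1, -1.16 for Spink4, -0.98 for Zg16, -0.96 for Tpsg1, -0.75 for both Tff3 and Agr2, -0.63 for Muc2 and -0.50 for Fcgbp. Each of these reached p = 0.1 in an exact two-sided permutation test over 20 arrangements, the smallest value that 3 against 3 libraries allow, and 0.111 after adjustment over the 10 genes (0.113 without Retnlb, which is at 0 in HET). For Spdef the difference was 0.01 (exact permutation p = 1).

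Whether the other genes moved by as much as Muc2 was read from their ratio to Muc2 within a library. The log2 ratio of Clca1 to Muc2 was -0.46 ± 0.16 in HET and 0.82 ± 0.35 in WT, without overlap, a difference of -1.28, and 4.37% of all tested genes lay wholly lower by this ratio. The log2 ratio of Spdef to Muc2 was -3.64 ± 0.21 in HET and -4.29 ± 0.35 in WT, also without overlap, a difference of 0.64, and 27.5% of all tested genes lay wholly higher. Retnlb is not read here because it was at 0 in HET. The ratios of Fcgbp, Zg16, Tff3, Agr2, Spink4 and Tpsg1 to Muc2 overlapped between the genotypes, with differences between -0.53 for Spink4 and 0.13 for Fcgbp. The exact permutation p was 0.1 for the Clca1 and Spdef ratios, the smallest possible here, and 0.3 after adjustment over the 9 ratios (0.32 over the 8 without Retnlb), so unequal change relative to Muc2 was not established by this test for either.

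**Figure D4:**
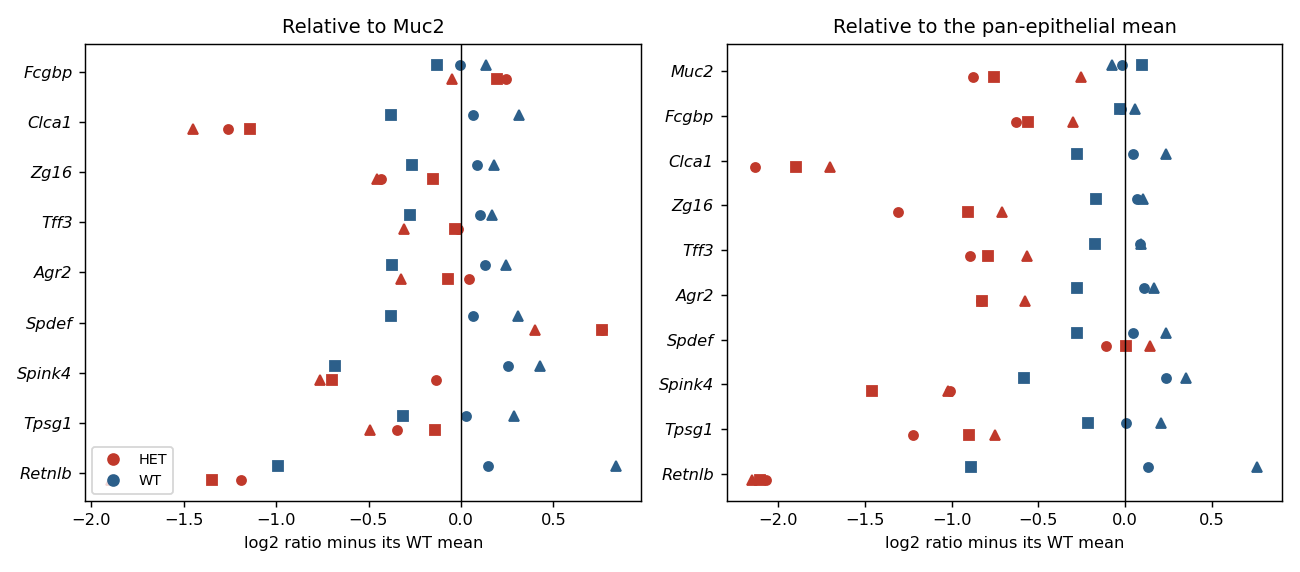
Log2 ratio of each gene to Muc2 (left) and to the mean of 15 epithelial genes (right) in each library, minus the WT mean of that ratio, with HET in red and WT in blue. Clca1 lies apart from WT in both panels, at -1.28 and -1.91, while Spdef lies to the right in the left panel and near 0 in the right.

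Promoter sequences were held by the RefSeq table of GRCm38.p6 for 5 of the 10 genes, Muc2, Fcgbp, Agr2, Spdef and Tpsg1, and not used here for Clca1, Zg16, Tff3, Spink4 and Retnlb. The 250 bases before the transcription start are shown, 5′ to 3′ on the gene's strand, for the gel-forming mucin, for Fcgbp and Agr2, which fell, and for Spdef, which did not pass. Capitals mark 2 motifs, searched on both strands: CAGCTG, an E-box of the kind that ATOH1 binds, and CCACCC, a site of the KLF type. Muc2 lies at chr7:141690090-141690339 (plus strand), Fcgbp at chr7:28070986-28071235 (plus strand), Agr2 at chr12:35992675-35992924 (plus strand) and Spdef at chr17:27728952-27729201 (minus strand).
Muc2: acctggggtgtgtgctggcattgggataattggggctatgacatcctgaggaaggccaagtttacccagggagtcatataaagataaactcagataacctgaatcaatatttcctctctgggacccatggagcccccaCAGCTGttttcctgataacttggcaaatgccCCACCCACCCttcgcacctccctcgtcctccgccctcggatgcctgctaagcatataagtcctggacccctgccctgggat
Fcgbp: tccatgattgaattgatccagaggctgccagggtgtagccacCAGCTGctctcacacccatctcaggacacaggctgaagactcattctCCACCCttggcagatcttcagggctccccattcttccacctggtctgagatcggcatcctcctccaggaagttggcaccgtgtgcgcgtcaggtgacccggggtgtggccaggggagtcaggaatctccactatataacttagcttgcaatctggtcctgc
Agr2: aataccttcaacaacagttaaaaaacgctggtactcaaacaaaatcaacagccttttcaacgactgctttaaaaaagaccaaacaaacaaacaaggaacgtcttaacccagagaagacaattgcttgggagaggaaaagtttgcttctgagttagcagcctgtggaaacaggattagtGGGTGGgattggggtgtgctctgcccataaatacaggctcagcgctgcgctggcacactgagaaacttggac
Spdef: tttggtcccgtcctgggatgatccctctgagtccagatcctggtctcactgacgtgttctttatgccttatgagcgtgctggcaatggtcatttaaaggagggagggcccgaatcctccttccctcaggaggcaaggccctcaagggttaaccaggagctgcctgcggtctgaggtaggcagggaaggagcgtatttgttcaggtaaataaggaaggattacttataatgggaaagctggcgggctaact

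The E-box stood 112 bases before the start in Muc2 and 208 bases before it in Fcgbp, and these were 2 of the 5 genes, against 12.8% of the 27025 genes in the table. Each gene was counted once, by the promoter listed first for it (Tpsg1 has 2). CCACCC was found for 4 of the 5 genes, all but Spdef, and for 27.7% of all genes. In Muc2 a pair of these matches overlapped, 81 and 77 bases before the start. The forkhead motif TGTTTAC, the ETS motif CCGGAT and the CDX motif TTTATTG were found for 0 of the 5, and for 3.09%, 4.90% and 4.42% of all genes. With 5 genes these counts describe the windows shown and nothing beyond them.

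Transcription factors that direct secretory and goblet cell fate were read as a list of 13, of which 7 were lower, 1 was higher and 5 did not pass, with a median log2 fold change of -0.33. Over all genes tested, 35.7% were lower and 10.7% were higher. Atoh1, which commits crypt cells to the secretory lineage, was at 3.69 ± 0.508 FPKM in HET and 6.04 ± 0.987 in WT (log2 fold change -0.58, adjusted p = 0.00806). Gfi1, which acts after Atoh1 in goblet and Paneth cells, fell from 2.07 ± 0.207 in WT to 1.28 ± 0.0436. Creb3l1 and Creb3l4, endoplasmic reticulum-bound factors of secretory cells, were at 3.94 ± 0.579 and 2.33 ± 0.184 in HET, against 6.09 ± 0.639 and 5.01 ± 1.29 in WT. These 4 factors fell, unlike Spdef. With quantile normalization the Gfi1 call was lost (adjusted p = 0.165), and the log2 fold changes of Atoh1 and Creb3l1 shrank to -0.39 and -0.34 while still passing. Klf4, needed for goblet cell differentiation in the mouse colon, did not pass at 49.6 ± 8.62 in HET against 63.1 ± 2.47 in WT (adjusted p = 0.0535), nor did the forkhead factors Foxa1, Foxa2 and Foxa3, which regulate Muc2 and other goblet genes, or the Notch target Hes1. Elf3, an epithelial ETS factor that is also 1 of the 15 epithelial genes, was the 1 that rose (130 ± 12.7 against 101 ± 2.48), and with epithelial scaling its log2 fold change of 0.35 became 0.23 and that call was lost (adjusted p = 0.0824).

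Genes for folding, packing and releasing mucin made up a list of 21, of which 18 were tested. Of these 9 were lower, 1 was higher and 8 did not pass, with a median log2 fold change of -0.44. The shares over all genes tested were 35.7% lower and 10.7% higher. Rab27b and Rab27a, small GTPases of secretory granules, were at 1.90 ± 0.164 and 3.27 ± 0.501 FPKM in HET and at 4.24 ± 0.683 and 5.60 ± 0.668 in WT (adjusted p = 0.000933 and 0.00424). Snap23, a protein of the fusion machinery, fell from 21.0 ± 1.48 in WT to 13.8 ± 0.983 in HET. Ern1, the stress sensor of the endoplasmic reticulum, fell from 5.37 ± 0.247 to 3.13 ± 0.243; its log2 fold change went from -0.63 to -0.41 with quantile normalization and still passed. Of the protein disulphide isomerases, Pdia6 was lower at 66.3 ± 2.49 in HET against 75.4 ± 0.681 in WT (log2 fold change -0.18, adjusted p = 0.0289), a call lost in 8 of the alternatives, with a log2 fold change of -0.08 under median-ratio scaling. Pdia3, Pdia4 and Pdia5 did not pass, with Pdia3 at 235 ± 8.85 in HET and 220 ± 3.34 in WT. Nlrp6, an innate sensor that takes part in goblet cell secretion, was the 1 that rose (74.7 ± 4.76 against 57.2 ± 3.53, adjusted p = 0.00588). The fusion and granule genes of this list are also used by other secretory cells, Paneth cells included, and that part was not tested.

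**Figure D5:**
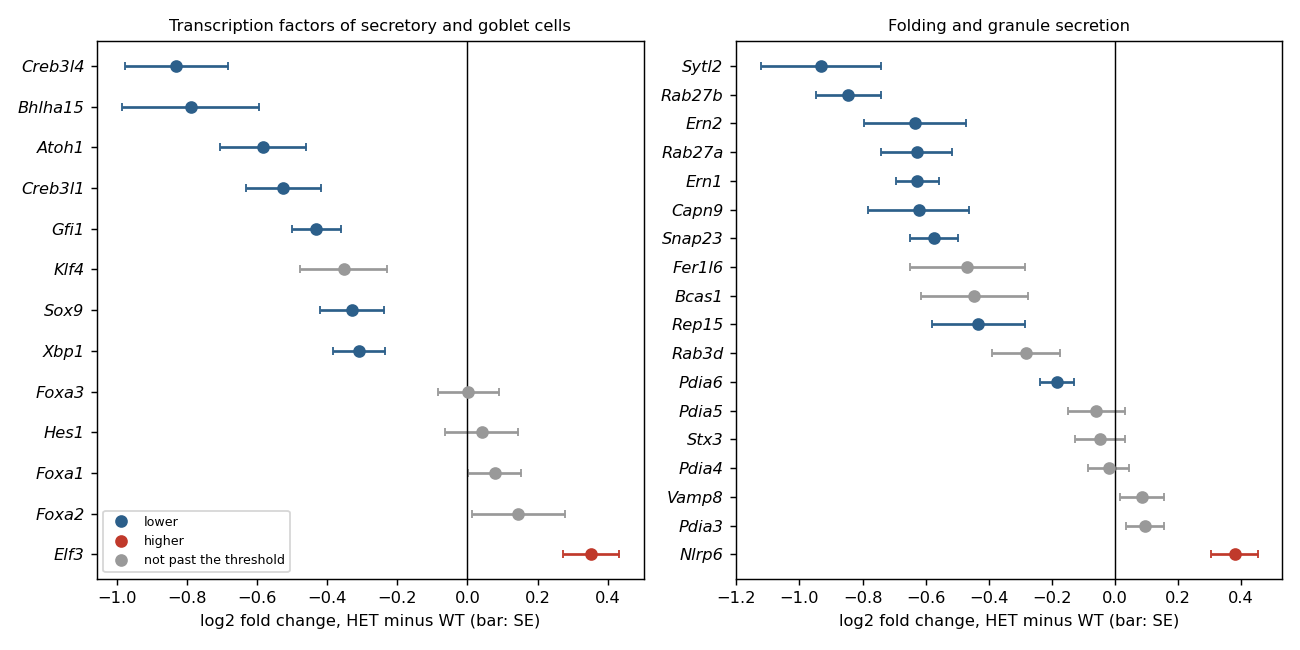
Log2 fold change of the tested genes of 2 lists, with bars of 1 SE, blue for lower, red for higher and grey for not past the threshold. Creb3l4 (-0.83) leads the falls among the transcription factors and Rab27b (-0.85) is among the largest among the secretion genes, whereas Elf3 (0.35) and Nlrp6 (0.38) lie to the right.

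Enzymes that attach O-linked sugars to mucins were lower in 10 of 17 tested cases and higher in 1, with a median log2 fold change of -0.34. Among all genes tested, 35.7% were lower and 10.7% higher. St3gal1, which caps the core sugar with sialic acid, was at 0.945 ± 0.214 FPKM in HET and 3.05 ± 0.718 in WT (adjusted p = 0.00161). The branching enzyme Gcnt3 was at 7.56 ± 0.757 in HET and 12.1 ± 0.833 in WT. Gcnt4, another branching enzyme, was the 1 that rose (13.9 ± 0.827 against 12.0 ± 0.593, adjusted p = 0.0399), and its call was lost in 8 of the alternatives.

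Among the other mucins, 4 of the 12 found in the table were tested. Of these 2 were lower, 0 were higher and 2 did not pass, beside 35.7% lower and 10.7% higher over all genes tested. Muc3 and Muc3a, named as membrane mucins, fell, Muc3 from 209 ± 24.0 FPKM in WT to 81.8 ± 43.2 in HET (adjusted p = 0.0119) and Muc3a from 7.55 ± 0.522 to 4.94 ± 0.363. How the counting split fragments between these like-named genes is uncertain. Muc13, a membrane mucin of enterocytes, did not pass at 767 ± 53.5 in HET against 855 ± 61.2 in WT (adjusted p = 0.198), nor did Muc4. The gel-forming mucins of stomach and airway were at or near 0 in every library, with Muc5ac listed at 0 in all 6. Muc2 was thus the one gel-forming mucin of the list above 1 FPKM.

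Among the relatives of Clca1, Clca3a1 fell from 3.39 ± 0.472 FPKM in WT to 1.57 ± 0.182 in HET (log2 fold change -0.77, adjusted p = 0.00104; -0.50 with quantile normalization), while Clca3b, Clca4a, Clca4b and Clca3a2 did not pass. Clca3b was at 112 ± 5.26 in HET and 101 ± 10.2 in WT. The longest stretch shared without a mismatch between Clca1 and any of 6 relatives, Clca2 included, was 20 bases.

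Other secreted or membrane proteins linked to mucus or goblet cells formed a list of 20, of which 13 were tested, 5 were lower and 1 was higher. Both counts lay close to the shares over all genes tested, 35.7% lower and 10.7% higher. Klk1, a kallikrein protease, fell from 44.7 ± 6.88 FPKM in WT to 20.7 ± 3.26 in HET (adjusted p = 0.0015), as did the crosslinking enzyme Tgm2, from 52.9 ± 3.59 to 33.8 ± 3.08. Pla2g10, a secreted phospholipase, fell from 1.81 ± 0.225 to 0.890 ± 0.347 (log2 fold change -0.58, adjusted p = 0.0113), a call lost with quantile normalization (-0.23, adjusted p = 0.183). Dmbt1, a mucosal scavenger receptor protein that binds bacteria, was the 1 that rose (386 ± 71.5 against 294 ± 11.1, limma adjusted p = 0.0473). That call was lost without any 1 of the WT libraries, with epithelial scaling (adjusted p = 0.179) and with the replicate block (0.0575). It was also lost without the filter on low values (0.0761) and with a mean FPKM of at least 5 (0.0585). Dmbt1 was highest in HET replicate 1, at 467 FPKM, and without that library its log2 fold change went from 0.38 to 0.23. The meprins Mep1a and Mep1b, proteases that detach small-intestinal mucus, did not pass.

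Among the genes whose levels ran most like Muc2 over the 6 libraries were C2, Cyfip1, Nrip1 and Zbtb7a, with Pearson's r between 0.984 and 0.991. For Clca1 they were Gsdmc4, Akap2, Ell, Lmod1 and Snap29, with r between 0.9985 and 0.9991. Gsdmc4, a gasdermin, was at 4.50, 5.61 and 7.41 FPKM in HET and at 46.1, 33.7 and 58.2 in WT. Libraries of the same genotype share these points, so the correlations describe the 6 libraries and carry no test.

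Other epithelial lineages are given for comparison. The 5 mucus components had a median log2 fold change of -0.62, the 14 Paneth genes one of -4.10 and the 9 tested tuft cell genes one of -0.76, of which 7 were lower. Of 12 enterocyte genes 5 rose and 0 fell, with a median of 0.31. Of 11 tested enteroendocrine genes 1 rose, 1 fell and 9 did not pass, with a median of 0.07. Among all genes tested, 35.7% were lower and 10.7% higher. Differences between these lists were not tested. Stromal markers were lower in 12 of 12 cases, and immune markers in 10 of 10 tested cases.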

How the data were processed

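Per the labels' protocols, oligo(dT) beads served to harvest the RNA, and a SMARTER kit was used for the libraries. The submitters' processing notes name GRCm39. The aligner, counter, annotation and use of strand are not stated in the sources used here. FPKM was used as the authors deposited it, 1 column per library.

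Tests used limma 3.58.1 (R 4.3.3) on log2 of FPKM plus 1 for 11870 genes with 3 or more libraries at or above 1, with trended eBayes, genotype as sole term and Benjamini-Hochberg adjustment at 0.05. In data simulated for these 11870 genes with 200 of them changed, 51% of log2 changes of 0.5 and 96.5% of changes of 1 were recovered. In the real data 5504 genes were called, so these rates describe the simulated setting only. Ratios within a library were compared by exact two-sided permutation. Lists are described by counts and medians. Depth was estimated from the lowest FPKM times GENCODE M21 transcript length, for genes with 1 transcript.

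The members and lists were chosen with earlier results of these data known. Besides the 10 genes, the rule named up to 4 called genes per list by moderated statistic, all called genes of a direction with at most 5, paralogs, and the 5 genes most correlated with Muc2 and with Clca1, of which 1 is not reported here. Klf4, the Foxa genes, Hes1, the Pdia (Pdia6 included) and meprin genes, the mast cell genes, Habp2, Il4ra, Stat6, the cytokines and the segment markers were named after their values were seen. A symbol on more than 1 row was read from the row of highest mean. Muc19 and Ccn3 were matched by synonym. Alternatives were pseudocounts of 0.1 and 0.01, other filters and scalings, a replicate block, untrended eBayes and leaving out each library; the adjustment without Retnlb and the alternatives for Pdia6 were added after seeing the data. Python 3.11.15, numpy 2.4.6, pandas 2.3.3, statsmodels 0.14.6 and matplotlib 3.10.9 were used.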

Additional observations from a re-analysis of the deposited data

How the results depend on the processing

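The count of goblet genes lower in HET was 8 with the values as deposited and 6 to 9 over the 16 alternatives, and 0 were higher in each. It was 7 with a common sum, with median-ratio scaling and with a mean FPKM of at least 5, where Retnlb was not tested, and 9 with epithelial scaling, where Muc2 passed (log2 fold change -0.63, adjusted p = 0.0137). Leaving out 1 library gave 6 to 9. The count over all genes was 5504 and went to 2797 of 7341 tested with a mean FPKM of at least 5, where fewer genes are tested. Without 1 library it was 3952 to 5676. Directions of the 10 genes held under every alternative. The log2 ratio of Agr2 to Muc2 reversed to 0.0068 without WT replicate 3, the highest of a range from -0.30 when 1 library was left out. Spdef relative to the epithelial mean reversed to -0.05 without HET replicate 3 and to -0.13 without WT replicate 2, with 0.13 as the highest value; the cause was not tested. With the replicate number as a block, 5082 genes and 8 of the goblet genes were called. Deviations of same-numbered libraries correlated at -0.03, 0.13 and 0.32 for numbers 1 to 3, and those of other pairs at -0.34 to 0.25. With 3 libraries per genotype, these values cannot decide whether same-numbered libraries share more than a number. Of the 29 other list genes named by rule, Stat3, Gcnt4, Il22ra1, Dmbt1, Il10rb and Il13ra1 lost their call most often, in 11, 8, 7, 7, 6 and 5 alternatives. No sign changed among these 29. Depth limits what can be said of Retnlb below about 0.2 FPKM.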

Other observations

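Signals that induce goblet products were read as a list of 16 genes of type 2 and IL-22 signalling, of which 7 were tested, 4 were lower and 1 was higher in HET. The shares over all genes tested were 35.7% and 10.7%. The cytokine genes Il4, Il5, Il13, Il25 and Il22 were below 0.3 FPKM in every library. Il33, an alarmin of stromal and epithelial cells, was lower in HET at 10.2 ± 1.37 FPKM against 20.6 ± 2.33 (adjusted p = 0.000825 by limma). Il13ra1, a chain of the receptor for IL-4 and IL-13, was at 38.6 ± 4.96 in HET and 50.9 ± 4.52 in WT (adjusted p = 0.0235), and Il22ra1, a chain of the IL-22 receptor, at 9.01 ± 2.32 and 13.6 ± 0.450 (adjusted p = 0.028). Both receptor calls were lost without WT replicate 1 or WT replicate 2, and that of Il22ra1 also without WT replicate 3. Scaling mattered as well: both were lost with a common sum, median-ratio scaling and quantile normalization (limma adjusted p between 0.0566 and 0.0758). The Il22ra1 call was also lost without the filter on low values (0.0507). Without HET replicate 1 the log2 fold change of Il22ra1 went from -0.57 to -0.36. Il4ra and Stat6, which carry the IL-4 and IL-13 signal, did not pass (12.7 ± 2.18 against 12.8 ± 0.303, and 36.3 ± 1.48 against 35.8 ± 1.42).

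Markers that place tissue along the gut were read because goblet cells grow more frequent towards the colon. Of the 13 colon markers 3 were tested, of which B3galt5 and Mettl7b fell, 0 rose and Prdx6 did not pass. B3galt5 passed the filter through the WT libraries alone, so it had to differ. The colon list summed to 112 to 140 FPKM in HET and 119 to 127 in WT, most of it Prdx6 (103 ± 13.5 and 90.9 ± 3.04). Car1, Hoxd12 and Hoxd13 of that list were at 0 in all 6 libraries. Of the 10 ileum markers 7 were tested, of which Muc3 fell, 0 rose and 6 did not pass, and the list summed to 1707 to 3513 FPKM in HET and 2083 to 4944 in WT. Reg3g (1487 ± 973 and 2633 ± 1465) and Ces2e (451 ± 29.2 and 441 ± 23.9) led that sum. Next came Slc51b in HET (116 ± 9.70, and 98.7 ± 5.13 in WT) and Muc3 in WT (209 ± 24.0, and 81.8 ± 43.2 in HET). Fgf15 was at 0 in all 6 libraries and Fabp6, a bile acid carrier, at 0.413 ± 0.0689 FPKM in HET and 0.327 ± 0.160 in WT. Of 10 tested genes of the proximal small intestine 3 rose, 0 fell and 7 did not pass, and their list had sums from 9784 to 11232 FPKM for HET and from 7579 to 9022 for WT. Beside these counts stand shares of 35.7% lower and 10.7% higher over all genes tested. The part of position along the gut in the goblet values was not tested.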
